A study of Mus musculus with 9 samples.

Results

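The BCL2 family was followed in 9 mouse liver tumors through a list of 10 gene symbols: Bcl2, Bcl2l1, Mcl1, Bak1, Bid, Bcl2l11, Bad, Bmf, Bik and Hrk. All 10 symbols were found among the 24421 symbols of each library, and all 10 were among the 14215 genes tested. The tumors came from C57BL/6 mice aged 11 weeks and formed 3 groups of 3, labelled LHP (tumors 2, 3 and 6), S7HP (tumors 9, 11 and 12) and S7HP+Snail (tumors 13, 14 and 15). Column names in the deposited files carry Luc for LHP and Smad7 for the other groups. Smad7 is an inhibitor of the TGF-β pathway, and Snail, added in the third group, is a zinc-finger repressor of epithelial genes. The labels do not spell out H and P, which all groups share. In the published mouse model from which these names are known, H and P stand for activated Hras and for knockdown of p53, delivered to hepatocytes. The labels state no promoter and do not say if each tumor is from its own animal. A p-value here covers only how far these tumors varied, which may be technical.

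The BCL2 family controls the mitochondrial route to apoptosis. Survival members (Bcl2, Bcl2l1, Mcl1) hold the effectors Bak1 and Bax in check, and BH3-only members (Bcl2l11, Bid, Bad, Bmf, Bik, Hrk) release or activate those effectors. Hepatocytes are known to depend on Bcl-xL, the protein of Bcl2l1, and on Mcl1, and TGF-β is a known inducer of apoptosis in liver cells, partly through Bim, the protein of Bcl2l11.

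Libraries were made from polyadenylated 3′ ends, so each transcript is read about once whatever its length. Values are log2(normalized count + 1), here called log2 values, and all libraries share nearly the same distribution, with totals between 19910396 and 19911234 normalized counts. The read depth behind them is not preserved. Smad7 and Snai1, the mouse genes of the added constructs, had mean log2 values of 10.07 and 10.69 in LHP, 6.52 and 6.48 in S7HP, and 7.36 and 8.10 in S7HP+Snail, so Smad7 was not high in the tumors named for it. A 3′ tag sees a construct only if it carries the end of the mouse gene, which the labels do not state, so neither gene checks the labels. Alb, the main plasma protein of hepatocytes, was at log2 values between 12.98 and 17.32 in all 9 tumors. Tumor 14 stood apart from the other S7HP+Snail tumors in biliary markers. Its log2 value was 4.35 for Krt19, against 12.53 and 11.29 in tumors 13 and 15, and 4.196 for Epcam, against 12.96 and 8.19.

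In S7HP tumors Bcl2 and Bcl2l11 were lower than in LHP and Bid was higher, by 3.38-fold, 2.35-fold and 3.51-fold. In S7HP+Snail tumors Bcl2 was 3.35-fold higher than in S7HP, while its level did not differ from LHP beyond the spread between tumors. Of the 10 members, 3 passed the test between S7HP and LHP (30%), beside 19% of all genes tested. In that comparison 1 member rose, beside 9.47% of all genes, and 2 fell, beside 9.54%. For S7HP+Snail against S7HP, 1 of 10 passed (10%), beside 2.3% of all genes (1.01% higher and 1.29% lower), and 0 of 10 passed without S7HP tumor 9 or 11. For S7HP+Snail against LHP 0 of 10 passed in limma, beside 7.22% of all genes (3.35% higher and 3.87% lower). A gene passed, here and throughout, at a Benjamini-Hochberg adjusted p under 0.05 over all 14215 genes in limma. At an unadjusted p under 0.05 there were 5 members in S7HP against LHP (3 higher and 2 lower), beside 34.4% of all genes (17.2% higher and 17.2% lower). There were 5 in S7HP+Snail against S7HP (1 higher and 4 lower), beside 17.8% (8.53% higher and 9.29% lower), and 2 in S7HP+Snail against LHP (1 higher and 1 lower), beside 25.1% (12.2% higher and 13% lower). Hrk is 1 of the 3 higher in S7HP against LHP and 1 of the 4 lower in S7HP+Snail against S7HP. It entered the test mainly through S7HP, where it is high, so it carries no weight in these counts. The comparisons share groups, and the S7HP tumors enter both the first and the second.

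The sequences upstream of the genes that passed are shown because Bcl2 and Bcl2l11 were lower and Bid was higher in the same tumors. Each is the 250 bases before the RefSeq transcription start (GRCm38.p6), 5′ to 3′ on the gene's strand. They lie at chr1:106714291-106714540 (minus strand) for Bcl2, chr2:128125788-128126037 (plus strand, the first of 2 listed starts) for Bcl2l11, and chr6:120916825-120917074 (minus strand) for Bid. Capitals mark the GC box GGGCGG and, in Bcl2l11, also the forkhead core TGTTTAC, each on either strand.
Bcl2: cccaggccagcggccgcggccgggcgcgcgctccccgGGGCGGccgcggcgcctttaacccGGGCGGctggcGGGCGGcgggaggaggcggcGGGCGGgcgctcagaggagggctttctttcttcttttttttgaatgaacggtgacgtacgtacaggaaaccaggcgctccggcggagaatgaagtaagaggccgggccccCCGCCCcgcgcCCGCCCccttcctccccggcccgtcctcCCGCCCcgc
Bcl2l11: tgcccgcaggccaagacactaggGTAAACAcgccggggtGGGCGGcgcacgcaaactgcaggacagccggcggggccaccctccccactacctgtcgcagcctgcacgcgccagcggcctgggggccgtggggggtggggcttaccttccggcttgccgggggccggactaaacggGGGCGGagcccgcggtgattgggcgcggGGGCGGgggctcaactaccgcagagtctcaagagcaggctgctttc
Bid: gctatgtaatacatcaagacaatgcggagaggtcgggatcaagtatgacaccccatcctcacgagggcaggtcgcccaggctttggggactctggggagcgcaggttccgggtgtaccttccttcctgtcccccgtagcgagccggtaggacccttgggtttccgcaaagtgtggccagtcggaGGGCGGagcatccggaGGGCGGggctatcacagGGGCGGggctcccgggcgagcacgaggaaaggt

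The 3 stretches were rich in CG, with a GC content of 74.8% for Bcl2, 72% for Bcl2l11 and 63.6% for Bid, beside a median of 52.4% over 32851 listed starts. They held 36, 24 and 18 CpG dinucleotides in that order, beside a median of 6. Bcl2 held 7 GC boxes, and Bcl2l11 and Bid held 3 each. Motifs were searched on both strands in the same 250 bases of the 15 starts listed for 9 of the 10 members. A GC box was found in 7 of the 15, and in 32.7% of all starts. Genes that did not pass held it too, with 3 boxes before Bad, 2 before Hrk and 1 before Mcl1, and the Mcl1 stretch had a GC content of 64.4% and 26 CpG. The forkhead core, the type of site that FOXO factors bind, was found in 1 of the 15, at 227 bases before the Bcl2l11 start, and in 3.17% of all starts. The Snail-type E-box CAGGTG was found in 1 of the 15, before Bad, and in 17.2% of all starts. The palindromic Smad box GTCTAGAC and the AP-1 site TGACTCA were found in 0 of the 15, and in 0.167% and 4.46% of all starts. These are matches of letters in a short window and do not show that a factor binds.

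Bcl2 (GRCm38 chromosome 1, 106538178 to 106714274) encodes the founding survival protein of the family. Its log2 value was 8.78, 8.22 and 8.30 in LHP tumors 2, 3 and 6, 6.69, 6.29 and 7.05 in S7HP tumors 9, 11 and 12, and 8.13, 8.38 and 8.76 in S7HP+Snail tumors 13, 14 and 15. All S7HP tumors lay below all 6 others, and the LHP and S7HP+Snail tumors overlapped. Bcl2 was lower in S7HP than in LHP by a log2 difference of -1.76 ± 0.30 (SE; limma, Benjamini-Hochberg adjusted p = 0.00545), a call kept in 15 of 15 alternatives. It was higher in S7HP+Snail than in S7HP by 1.74 ± 0.30 (limma, Benjamini-Hochberg adjusted p = 0.0219), in 3 of 3 tumors. That second call was lost without S7HP tumor 9 (limma, adjusted p = 0.0645), without S7HP tumor 11 (adjusted p = 0.0895) and when only the 6 libraries compared were fitted (adjusted p = 0.0709), over a range of adjusted p from 0.0199 to 0.0895. Without S7HP+Snail tumor 14 the difference was 1.77 (limma, adjusted p = 0.0408). Between S7HP+Snail and LHP the log2 difference was -0.01, with a 95% interval from -0.69 to 0.67.

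Of 5 endothelial markers, Plvap, a protein of vessel wall diaphragms, fell in S7HP by a log2 difference of -2.01 (limma, Benjamini-Hochberg adjusted p = 0.00249) and rose in S7HP+Snail against S7HP by 1.45 (limma, Benjamini-Hochberg adjusted p = 0.0382). The latter call did not hold in 10 of 15 alternatives, including the removal of any single tumor of LHP or S7HP and of S7HP+Snail tumor 13 or 14, and over all 15 the adjusted p ran from 0.028 to 0.134 (limma). The other 4 did not pass in any comparison. Thus 1 of 5 fell in S7HP against LHP, beside 9.54% of all genes tested, and 1 of 5 rose in S7HP+Snail against S7HP, beside 1.01%. At an unadjusted p under 0.05 there were 3 of 5 lower in S7HP against LHP, beside 17.2% of all genes, and 4 of 5 higher in S7HP+Snail against S7HP, beside 8.53%. The summed normalized counts of the 5 ran from 2826 to 4304 in LHP, 1294 to 2412 in S7HP and 2707 to 4314 in S7HP+Snail. The S7HP range thus lay below both others, as it did for Bcl2. Taken singly, only Plvap and Kdr had no overlap between S7HP and LHP (2 of 5 lower, beside 21.3% of all genes tested). Between S7HP+Snail and S7HP, Plvap, Kdr and Cdh5 had none (3 of 5 higher, beside 9.53%). Pecam1 was the largest part of each sum and overlapped in both comparisons, as did Tek. Among 8 lymphocyte markers, 4 were too low to test and the other 4 did not pass in limma in any comparison (0 at an unadjusted p under 0.05). In S7HP against LHP 19% of all genes tested passed, and 34.4% had an unadjusted p under 0.05. The summed counts of the 8 lymphocyte markers overlapped between the groups, at 824 to 2284, 781 to 1223 and 498 to 1643. Ptprc made up most of these sums, at 2088.89 in LHP tumor 6, so they say little about the other markers. In S7HP against LHP the log2 difference was -0.43 for Ptprc, 2.04 for Cd3d, 1.97 for Cd2 and 2.52 for Nkg7, each with overlap. Across bulk tumors, fewer cells of a type and less RNA per cell cannot be told apart, and the part of vessel cells in the Bcl2 values was not tested.

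**Figure D1:**
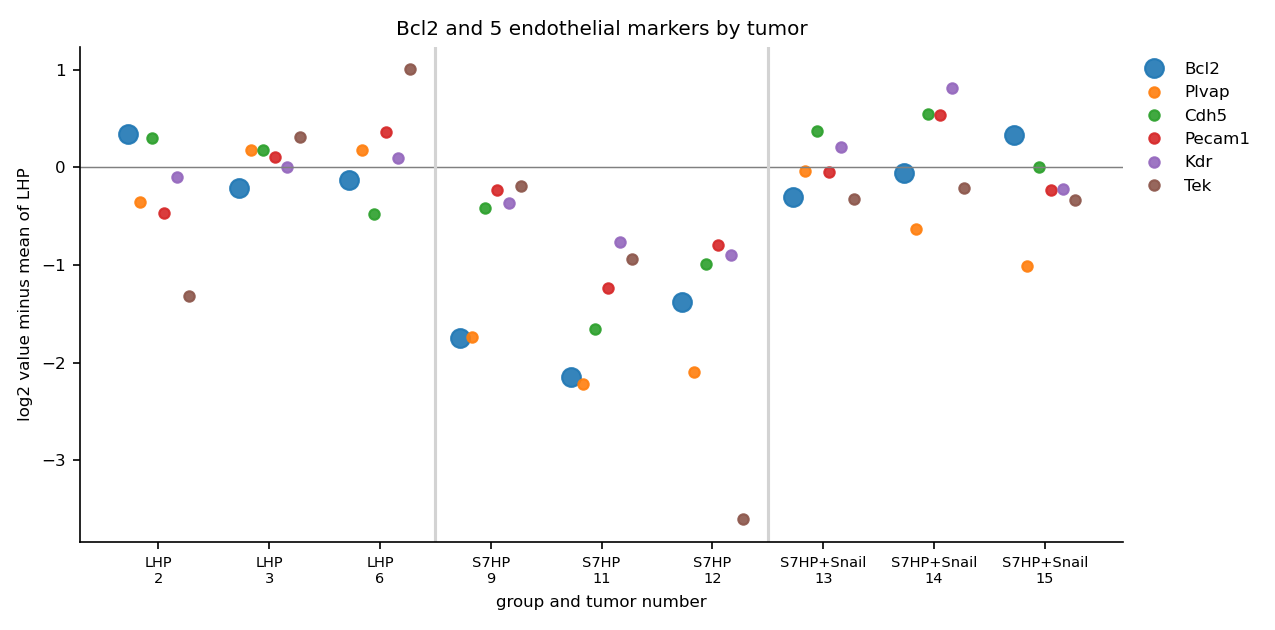
Each point is a tumor's log2 value minus the mean of the 3 LHP tumors, for Bcl2 (large points) and for the endothelial markers Plvap, Cdh5, Pecam1, Kdr and Tek, with tumors on the x axis by group and number. In the S7HP tumors Bcl2 and all 5 markers lie below 0, the LHP mean, and in the S7HP+Snail tumors Bcl2 lies around 0. Pecam1, Cdh5 and Tek overlap between the S7HP and LHP tumors.

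Bcl2l1 (chromosome 2, 152780668 to 152831728) encodes Bcl-xL. It was at 12.57, 12.20 and 12.33 in LHP, 13.34, 12.91 and 13.59 in S7HP, and 11.55, 12.06 and 12.73 in S7HP+Snail. All 3 S7HP tumors lay above all others, the reverse of Bcl2, yet neither difference passed. The log2 difference was 0.91 ± 0.31 (SE) for S7HP against LHP (limma, Benjamini-Hochberg adjusted p = 0.0671) and -1.17 ± 0.31 for S7HP+Snail against S7HP (limma, Benjamini-Hochberg adjusted p = 0.087). The first passed in 3 of 15 alternatives: without S7HP+Snail tumor 13, without S7HP+Snail tumor 15 and with only the 6 libraries compared, with adjusted p from 0.0283 to 0.18 over the 15 (limma). The second passed without S7HP+Snail tumor 15 (limma, adjusted p = 0.034, in a range up to 0.23).

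Mcl1 (chromosome 3, 95658788 to 95663176) encodes a short-lived survival protein. Its log2 values were 11.56, 11.16 and 11.47 in LHP, 11.36, 11.06 and 11.53 in S7HP, and 11.24, 11.55 and 11.77 in S7HP+Snail. The 3 groups overlapped. The 95% interval of the log2 difference ran from -0.59 to 0.43 for S7HP against LHP, from -0.30 to 0.72 for S7HP+Snail against S7HP and from -0.38 to 0.64 for S7HP+Snail against LHP.

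The tags are counted per transcript, and the 3 survival genes were set beside each other within a library. The values were brought to nearly 1 shared distribution, which does not keep ratios of read counts between genes. The shares below are therefore of normalized counts and not of transcripts. Bcl2l1 made up 62.0% to 64.5% of their summed normalized counts in LHP, 77.7% to 79.98% in S7HP and 52.6% to 63.3% in S7HP+Snail. Mcl1 made up 31.4% to 34.2%, 19.2% to 21.5% and 32.7% to 42.5%, and Bcl2 3.80% to 4.58%, 0.780% to 0.853% and 4.05% to 4.88%, in the same order. For each of the 3 genes, the share in S7HP tumors did not overlap with the share in either other group. The shares sum to 100% within a tumor and are given without a test, so they are not 3 separate results. The Mcl1 values themselves overlapped between the groups, and the Bcl2l1 differences did not pass.

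**Figure D2:**
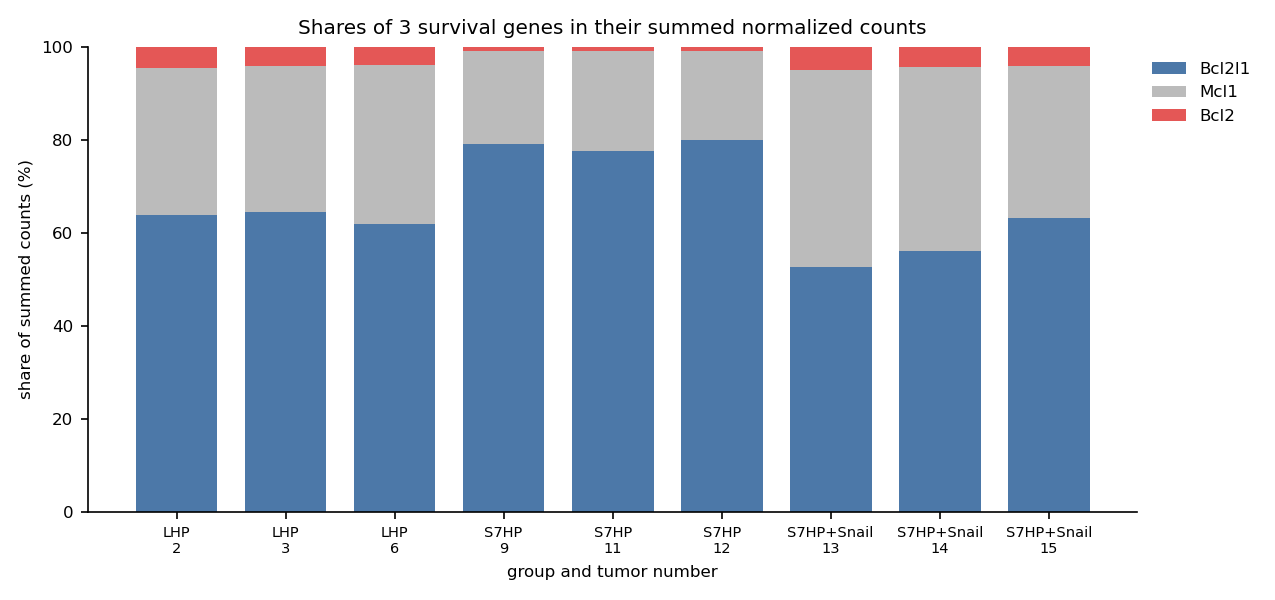
Stacked bars give the share of Bcl2l1, Mcl1 and Bcl2 in their summed normalized counts (y axis, percent) for each of the 9 tumors, by group and tumor number. Bcl2l1 takes 77.7% to 79.98% in the S7HP tumors and at most 64.5% in the others.

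Bak1 (chromosome 17, 27019810 to 27029009) encodes an effector that permeabilizes the outer mitochondrial membrane. It was at 10.52, 9.89 and 10.60 in LHP, 9.82, 10.11 and 10.13 in S7HP, and 10.82, 9.99 and 9.90 in S7HP+Snail. The groups overlapped in every comparison. Its difference between S7HP and LHP was -0.32, with a 95% interval from -0.98 to 0.35 on the log2 scale. It was -0.54 without LHP tumor 3 and -0.183 without LHP tumor 6. The 3′ end of Bak1 overlaps Ggnbp1 on the opposite strand in GENCODE, and whether strand was used in counting is not given in the sources used here.

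Among the BH3-only genes, Bid passed upward and Bcl2l11 downward. Bid (chromosome 6, 120891930 to 120916853) encodes the protein that caspase-8 cleaves to carry a death receptor signal to mitochondria. Its log2 value was 7.67, 7.31 and 6.94 in LHP, 8.99, 8.96 and 9.41 in S7HP, and 8.42, 8.40 and 7.99 in S7HP+Snail. The 3 groups were separate, with LHP lowest, S7HP+Snail between and S7HP highest. The log2 difference was 1.81 ± 0.28 (SE) for S7HP against LHP (limma, Benjamini-Hochberg adjusted p = 0.00308), a call kept in 15 of 15 alternatives. The S7HP+Snail tumors differed from S7HP by -0.85 ± 0.28 and from LHP by 0.96 ± 0.28, and neither passed (limma, Benjamini-Hochberg adjusted p = 0.143 and 0.0649). The 3′ end of Bid overlaps Bcl2l13 on the opposite strand, and Bcl2l13 was at a log2 difference of 0.00 between S7HP and LHP, with a 95% interval from -0.58 to 0.59.

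Of 6 hepatocyte markers, 3 (Hnf4a, Alb and Apoa1) rose in S7HP against LHP, beside 9.47% of all genes tested. Apoa1 no longer passed when any single LHP tumor, S7HP tumor 9 or S7HP tumor 11 was removed, at adjusted p up to 0.0962 in limma. The summed counts of the 6 markers ran from 16950 to 31609 in LHP, 70580 to 228468 in S7HP and 59301 to 147681 in S7HP+Snail. The LHP tumors were thus lowest in these sums and in Bid. Alb was the largest part of each sum, at 163926 in S7HP tumor 9, so they say little about the other markers. Ttr, Cps1 and Tat were higher in S7HP than in LHP by log2 differences of 0.86, 2.36 and 1.34, each with overlap. None of them passed (limma, Benjamini-Hochberg adjusted p = 0.288, 0.0846 and 0.318). The part of hepatocyte content in the Bid values was not tested.

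Bcl2l11 (chromosome 2, 128126038 to 128162547) encodes Bim, which binds all the main survival proteins. It was at 10.98, 11.05 and 11.44 in LHP, 9.95, 9.61 and 10.22 in S7HP, and 9.86, 10.30 and 10.57 in S7HP+Snail. All LHP tumors lay above all 6 others, and S7HP and S7HP+Snail overlapped. The log2 difference of S7HP from LHP was -1.23 ± 0.26 (SE; limma, Benjamini-Hochberg adjusted p = 0.0114), and without LHP tumor 6 the call was lost (limma, adjusted p = 0.0505, in a range from 0.00857). S7HP+Snail differed from LHP by -0.92 ± 0.26, which did not pass (limma, Benjamini-Hochberg adjusted p = 0.0626), and from S7HP by 0.31, with a 95% interval from -0.27 to 0.90. The latter was 0.152 without S7HP+Snail tumor 15, 0.157 without S7HP tumor 11 and 0.507 without S7HP+Snail tumor 13. Of 5 stellate cell and fibroblast markers, 3 (Acta2, Pdgfrb and Col1a1) fell in S7HP against LHP, beside 9.54% of all genes tested. The summed counts of the 5 were 22983 to 35043 in LHP, 4999 to 8069 in S7HP and 8518 to 11593 in S7HP+Snail. Of 5 biliary markers, 1 fell in S7HP against LHP, beside 9.54% of all genes tested. It was Sox9, a duct cell and progenitor factor, at a log2 difference of -1.87 (limma, Benjamini-Hochberg adjusted p = 0.0194). The Sox9 call was lost without LHP tumor 2, without LHP tumor 3 and without S7HP tumor 11 (limma, adjusted p up to 0.0735). Most of the list went the other way. Krt7, a duct cell keratin, had a log2 difference of 4.004, Krt19 of 2.13 and Epcam of 2.20, each with no overlap between these groups. None of them passed (limma, Benjamini-Hochberg adjusted p = 0.0788, 0.407 and 0.395). Spp1 was at -0.34 with overlap. The summed biliary counts overlapped, at 95687 to 184796 in LHP, 52021 to 144344 in S7HP and 26897 to 332403 in S7HP+Snail. Spp1 made up most of these sums, at 320523 in S7HP+Snail tumor 15, so they say little about the other 4 markers. The part of either marker list in the Bcl2l11 values was not tested.

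Bad (chromosome 19, 6941861 to 6951899), whose protein is inactivated by phosphorylation downstream of growth factors, was at 11.09, 11.60 and 11.99 in LHP, 11.55, 11.34 and 11.74 in S7HP, and 11.49, 12.11 and 12.29 in S7HP+Snail. The groups overlapped in every comparison. The S7HP and LHP means differed by -0.02, with a 95% interval from -0.67 to 0.64.

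Bmf (chromosome 2, 118528757 to 118549687), a BH3-only protein tied to the cytoskeleton, was low. It was at 4.11, 5.67 and 5.37 in LHP, 6.30, 6.26 and 5.87 in S7HP, and 3.69, 4.72 and 4.72 in S7HP+Snail. The S7HP tumors were the 3 highest, as for Bcl2l1. The differences of 1.10 ± 0.55 (SE) from LHP to S7HP and -1.77 ± 0.55 from S7HP to S7HP+Snail did not pass (limma, Benjamini-Hochberg adjusted p = 0.187 and 0.127). Without LHP tumor 2 the first was 0.624.

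Bik (chromosome 15, 83526862 to 83544634), which acts at the endoplasmic reticulum, was at 6.04, 5.63 and 5.32 in LHP, 6.06, 6.26 and 4.78 in S7HP, and 5.03, 6.11 and 5.09 in S7HP+Snail. Its groups overlapped in every comparison. The interval for S7HP against LHP was wide, from -1.14 to 1.21 on the log2 scale.

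Hrk (chromosome 5, 118164648 to 118189478), known best from neurons, was low or listed at 0 in every tumor. It was listed at 0 in LHP tumors 3 and 6 and in all 3 S7HP+Snail tumors, at 4.11 in LHP tumor 2, and at 4.60, 6.19 and 4.87 in S7HP tumors 9, 11 and 12. Counting distinct values upward from 0, the LHP tumor 2 value was step 13 and the S7HP values were steps 19, 44 and 28, which would be read counts if each step is 1 read. Hrk entered the test through its S7HP tumors and LHP tumor 2, so its place among tested genes depends on the group where it was high. The differences of S7HP from LHP and of S7HP+Snail from S7HP did not pass (limma, Benjamini-Hochberg adjusted p = 0.0596 and 0.0701). The first passed in 5 of 14 alternatives, among them the removal of LHP tumor 2 (limma, adjusted p from 0.0299 to 0.189), and the second in 1 of 14 (adjusted p from 0.043 to 0.232).

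**Figure D3:**
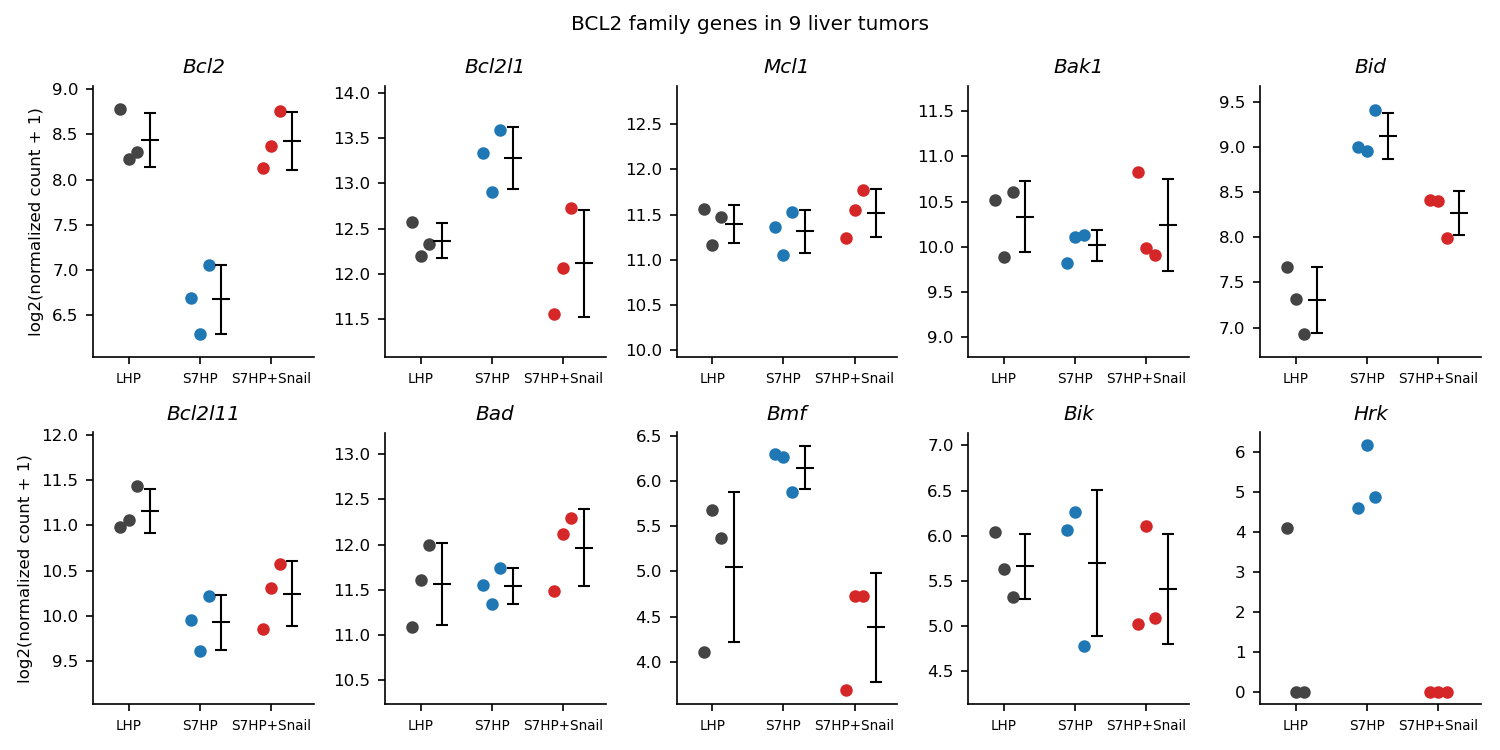
Each panel shows 1 gene, with a point for each tumor (y axis, log2 of normalized count + 1) by group, and a bar for the mean ± SD of 3 tumors (no bar for Hrk, which is listed at 0 in 5 tumors). The y axes differ in position between panels, and that of Hrk also spans a wider range. Bcl2 is low in the 3 S7HP tumors, Bid and Bcl2l1 are high there, and Mcl1 and Bad overlap between groups.

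In the S7HP tumors, 6 of 10 members lay wholly outside the LHP range, 4 higher and 2 lower, beside 42.1% of all genes tested (20.9% higher and 21.3% lower). Between S7HP+Snail and S7HP 5 of 10 did not overlap, 1 higher and 4 lower, beside 20.5% (9.53% higher and 11% lower). Between S7HP+Snail and LHP 2 of 10 did not overlap, Bid higher and Bcl2l11 lower, beside 30.5% (14.7% higher and 15.8% lower). Hrk is counted among the 4 higher in the first comparison and the 4 lower in the second. It passed the filter on low values mainly through S7HP, where it is high, so its part in these counts is no support. Besides Hrk, the members wholly higher in S7HP than in LHP were Bcl2l1, Bmf and Bid. The same genes were those wholly lower in S7HP+Snail than in S7HP. The median log2 difference of the 10 members was 0.01, -0.04 and -0.17 in these comparisons, beside 0.02, -0.02 and 0.00 over all genes tested. Survival and BH3-only members were found on both sides of 0. In size, the median absolute log2 difference was 1.004, 0.64 and 0.33, beside 0.61, 0.42 and 0.50 over all genes. These medians include Hrk, at log2 differences of 3.85 and -5.22 in the first and second comparisons. Since Hrk passed the filter mainly through S7HP, a larger size of the members is not read from them.

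**Figure D4:**
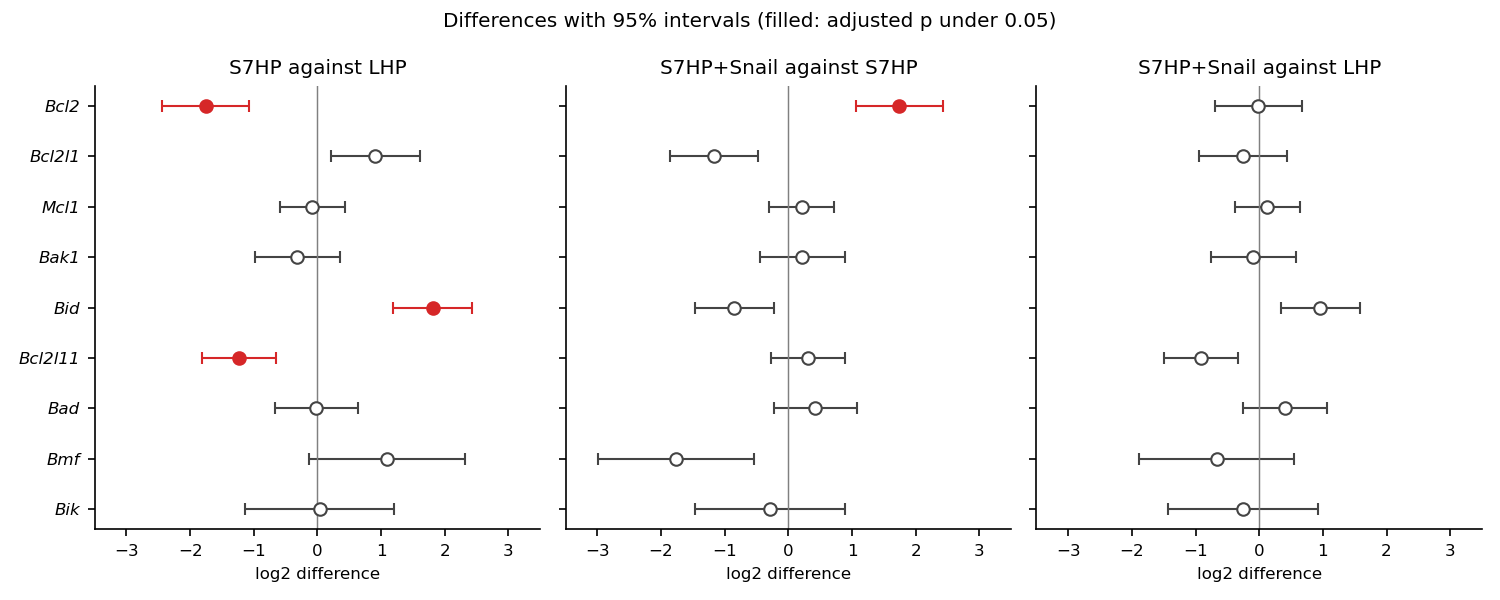
Log2 differences (x axis) with 95% intervals from limma are shown for 9 members in the 3 comparisons, and filled red points passed at an adjusted p under 0.05. Hrk is left out since 1 group is listed at 0 throughout. Bcl2 lies at -1.76, 1.74 and -0.01 from left to right.

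The tested genes with profiles most like each member that passed, by Pearson correlation over the 9 libraries, were found among all others. The libraries fall into 3 groups, so a high value can come from a like order of group means. For Bcl2 these were Gja1 (r = 0.972), which encodes connexin 43, and Atp8b2 (r = 0.961), with mean log2 values of 11.22, 7.01 and 11.40 for Gja1 in LHP, S7HP and S7HP+Snail. Bcl2l11 was most like Car5b (r = 0.988), a mitochondrial carbonic anhydrase, and Rab7b (r = 0.982). Bid was most like Gstt2 (r = 0.976), a glutathione transferase, and Psph (r = 0.971), an enzyme of serine synthesis. Gstt2 had means of 5.93, 9.64 and 7.70, with the same order of groups as Bid.

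Of 57 other genes of apoptosis, 53 could be tested, and 6 rose and 5 fell in S7HP against LHP (20.8%, beside 19% of all genes tested). That share is near the background. Removal of any single LHP tumor, of S7HP tumor 9 or of S7HP tumor 11 brought the count of 11 to between 5 and 7. In S7HP+Snail against S7HP 1 of 53 passed (1.89%, beside 2.3%), and against LHP 1 of 53 (1.89%, beside 7.22%). These single calls were of Bcl2l14 and E2f1, and each was lost when certain single tumors, named with the gene, were removed.

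Among 16 other BCL2 relatives, 14 were tested. Bbc3, which encodes the p53-induced BH3-only protein Puma, rose in S7HP against LHP, from 6.85, 7.33 and 6.26 to 8.38, 9.01 and 8.32, by a log2 difference of 1.76 ± 0.37 (SE; limma, Benjamini-Hochberg adjusted p = 0.0115). Its groups did not overlap, and the call was kept in 15 of 15 alternatives. Bcl2l14, a less studied relative, was at 7.12, 5.96 and 6.44 in LHP, 8.28, 8.05 and 8.03 in S7HP, and 6.35, 6.25 and 6.52 in S7HP+Snail. It rose by 1.61 in S7HP against LHP (limma, Benjamini-Hochberg adjusted p = 0.0114) and fell by 1.75 in S7HP+Snail against S7HP (limma, Benjamini-Hochberg adjusted p = 0.0328), the opposite order to Bcl2. The fall no longer passed after removal of LHP tumor 6, of any single tumor of S7HP, or of S7HP+Snail tumor 13 or 14 (limma, adjusted p up to 0.105).

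Bcl2a1a and Bcl2a1d, survival genes of blood cells, fell in S7HP against LHP by log2 differences of -1.57 and -1.41 (limma, Benjamini-Hochberg adjusted p = 0.0398 and 0.0426). They are near-identical copies that may share reads, so they are 1 uncertain result. Neither call held in 7 of 15 alternatives, including the removal of any single LHP tumor and of S7HP tumor 9 or 11 (limma, adjusted p up to 0.142 and 0.152). Of 6 macrophage markers, 0 passed in limma in S7HP against LHP, beside 19% of all genes tested. At an unadjusted p under 0.05 there were 0, beside 34.4%. The summed counts of these macrophage markers were 2155 to 2816 in LHP and 2055 to 3001 in S7HP. The summed counts of 4 neutrophil markers were 1407 to 9949 in LHP and 6372 to 15884 in S7HP. In S7HP against LHP 0 of them passed in limma (0 at an unadjusted p under 0.05), beside the same shares of all genes. Bax, the second effector, was at 11.08 ± 0.28 in LHP and 10.45 ± 0.16 in S7HP (SD, n = 3 each) without passing (limma, Benjamini-Hochberg adjusted p = 0.106).

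Of 10 genes of the mitochondrial pathway, 2 rose and 1 fell in S7HP against LHP (30%). Of all genes tested, 19% passed there (9.47% higher and 9.54% lower). Htra2, a protease released from mitochondria, fell by 1.26 on the log2 scale, the nuclease gene Endog rose by 1.14, and Vdac2, a channel of the outer membrane that holds Bak1, rose by 0.94 (limma, Benjamini-Hochberg adjusted p = 0.0201, 0.0325 and 0.0462). Htra2 no longer passed after removal of LHP tumor 3, LHP tumor 6 or S7HP tumor 9. The call was likewise lost for Endog after removal of any single LHP tumor, of S7HP tumor 9 or of S7HP tumor 11, and for Vdac2 after removal of any single LHP or S7HP tumor and of S7HP+Snail tumor 15 (limma, adjusted p up to 0.0825, 0.11 and 0.158). Of 8 caspases, 5 inhibitor of apoptosis genes and 8 tested death receptor genes, 0 passed in any comparison in the limma fit of all 9 libraries. At an unadjusted p under 0.05 there were 2, 1 and 1 of these in S7HP against LHP (beside 34.4% of all genes), 0, 1 and 1 in S7HP+Snail against S7HP (beside 17.8%), and 3, 1 and 0 in S7HP+Snail against LHP (beside 25.1%). Some passed in alternatives of S7HP against LHP. These were Casp8 with only the 6 libraries compared and without S7HP+Snail tumor 14, Casp12 without S7HP tumor 11, and Fas without LHP tumor 6.

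Among 9 regulators of the members, 8 were tested, and 2 rose and 2 fell in S7HP against LHP (50%). Of all genes tested, 19% passed there (9.47% higher and 9.54% lower). E2f1, a cell cycle factor that can drive BH3-only genes, fell by 1.60 on the log2 scale, and Usp9x, a deubiquitinase that stabilizes Mcl1, fell by 1.003 (limma, Benjamini-Hochberg adjusted p = 0.0072 and 0.014). Foxo1, a forkhead activator of Bcl2l11, rose by 1.31 and the stress factor Ddit3 rose by 1.26 (limma, Benjamini-Hochberg adjusted p = 0.0158 and 0.0309). The call of Usp9x was lost without LHP tumor 2, that of Foxo1 without LHP tumor 6 and without S7HP tumor 9, and that of Ddit3 after removal of LHP tumor 3, LHP tumor 6, S7HP tumor 11 or S7HP tumor 12 (limma, adjusted p up to 0.0512, 0.0649 and 0.116). E2f1 was also the gene that fell in S7HP+Snail against LHP, by 1.58 (limma, Benjamini-Hochberg adjusted p = 0.0165), a call lost without LHP tumor 3 or 6 (adjusted p up to 0.0703).

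**Figure D5:**
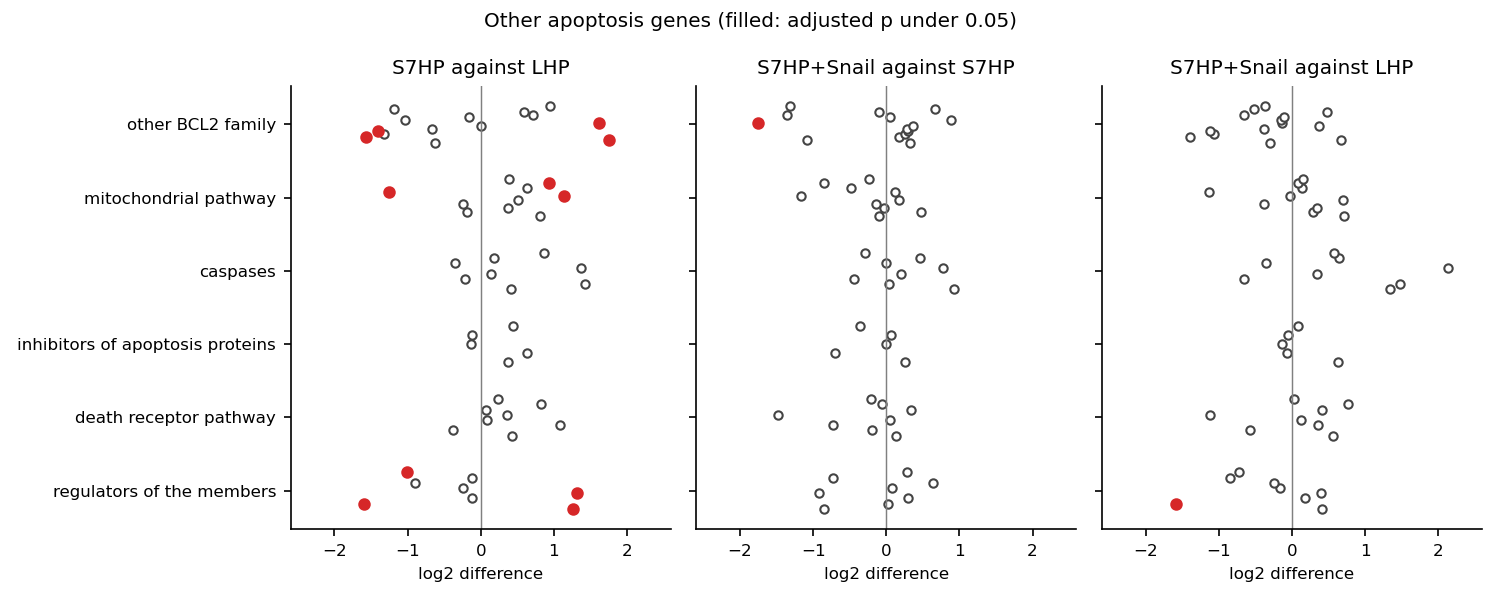
Each point is 1 gene's log2 difference (x axis) in the 3 comparisons, for 6 lists of other apoptosis genes, and filled red points passed at an adjusted p under 0.05. In S7HP against LHP 6 genes passed to the right and 5 to the left, and 1 gene passed in each of the other panels.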

How the data were processed

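The authors deposited 1 value per gene symbol for each tumor. The submitters' processing notes name Bowtie2, edgeR and mm10 without versions or roles. The counting step and its annotation are not known here. A deposited value is a log2 of normalized counts with 1 added, and the normalization is a quantile one, judged from the values: 9 times the unlogged value was whole for 100% of values (tolerance 0.001, widened in proportion above 100), and the libraries share nearly 1 distribution. Because this is a log2 scale, limma was used in place of the count test first planned. Depth per library is unknown, so no counting interval is given.

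A gene was kept if 3 or more libraries reached a log2 value of 4 (14215 genes), and all 9 libraries were fitted in limma 3.58.1 (R 4.3.3) with an intensity trend and robust variances, two-sided, with Benjamini-Hochberg adjustment. The procedure was tested on simulated data. SE and 95% intervals are limma's, and folds are on the scale of normalized count + 1. Exact permutation of 3 against 3 tumors cannot go below p = 0.1 and was not used. Members and lists were chosen with earlier results of these data known. All 10 members are named, along with up to 4 passing genes per list and comparison (smallest adjusted p) and the 2 most correlated genes that are neither predicted nor Rik genes. Other named genes (Bax, Bcl2l13 and the cell type markers) were chosen after their values were seen. List entries were matched by symbol, 96 of 97. Gene positions are from GENCODE M21 (GRCm38), and promoters from RefSeq (GRCm38.p6), with 9 of 10 members matched. Alternatives were another fit, variance model, filter, pseudocount and scaling, and each library left out in turn. Figures used matplotlib 3.10.9.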

Additional observations from a re-analysis of the deposited data

How the results depend on the processing

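No paired analysis was possible because the groups share no tumor numbers. The 4 member differences that passed kept their sign in every alternative run, and 2 of them (Bcl2 and Bid in S7HP against LHP) also kept their call in 15 of 15. The other 2 lost it in the alternatives named with their values above. For S7HP against LHP the count of members passing was 3, 2 to 4 with 1 library left out, and 5 when only the 6 libraries compared were fitted. For S7HP+Snail against S7HP it was 1, 0 to 2 with 1 library left out, 0 with only the 6 libraries compared and 2 with no intensity trend and no robust variances. For S7HP+Snail against LHP it was 0 in 15 of 15 alternatives. The counts of other apoptosis genes passing were 11, 1 and 1, and with 1 library left out ran from 5 to 14, from 0 to 2 and from 0 to 2. With no intensity trend and no robust variances the first was 7, and with only the 6 libraries compared it was 16. Among the 30 member differences, 7 changed sign in some alternative, and none of those 7 had passed. With 1 library left out, the log2 differences in S7HP against LHP ran from -0.198 to 0.0503 for Mcl1, -0.244 to 0.497 for Bik and -0.256 to 0.197 for Bad. Those of S7HP+Snail against S7HP ran from -0.0709 to 0.388 for Bak1, and those of S7HP+Snail against LHP from -0.183 to 0.159 for Bcl2, -0.561 to 0.026 for Bcl2l1 and -0.387 to 0.0723 for Bak1. Under trimmed mean scaling Bcl2 was at 0.00131 in S7HP+Snail against LHP. With a pseudocount of 8 the Hrk difference of S7HP from LHP was 1.96. The filter at a log2 value of 6 gave no value for Bmf and Hrk, which it removed. Where a call changed, the cause was not tested.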
